A study of Mus musculus with 10 samples.

Results

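The cornified envelope is the crosslinked protein shell that replaces the plasma membrane of keratinocytes as they become corneocytes. Its assembly begins where the plakin proteins envoplakin (Evpl) and periplakin (Ppl) settle below the membrane, and it is strengthened by loricrin (Lor), the main protein of the mature epidermal envelope, and by the small envelope protein cornifelin (Cnfn). Transglutaminases 1, 3 and 5 (Tgm1, Tgm3 and Tgm5) join these proteins by calcium-dependent bonds between glutamine and lysine residues. Described here are these 7 genes, taken as the 10 probe sets annotated to their single symbols, of 18193 genes and 34945 probe sets with a single symbol in all.

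Primary keratinocytes of FVB P1 mice were profiled for mRNA on Affymetrix mouse expression arrays. Undifferentiated cells (2 arrays) were held at 0.05 mM calcium, and differentiated cells (4 arrays) were kept at 0.4 mM calcium for 2 days. Another 2 arrays hold cells differentiated in the same way with the dominant negative A-C/EBP, which pairs with C/EBP proteins and keeps them off DNA. Its transgene was switched on by withdrawal of doxycycline, and whether the differentiated control cells carried it is not given in the sources used here. The last 2 arrays hold cells given 5-azacytidine (5-AZA) at 1 µM, an inhibitor of DNA methylation, and then differentiated. By the study's methods it was added within hours of seeding, before calcium was raised to 0.4 mM. All values are log2 levels per probe set made with RMA, and a gene's level is the mean of its probe sets. A log2 difference of 1 is a doubling. Where adjusted p-values are given, they come from 1 limma fit of all 10 arrays and are adjusted over all genes. The verbs rose and fell are kept for genes with an adjusted p under 0.05. Nothing says that replicates were separate cultures. The p-values then measure the spread among these arrays alone, possibly a technical one, and precision is limited by how few they are.

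The arrays had medians of 4.64 to 4.78 over all probe sets. All 7 keratinocyte markers examined, among them Krt5, Krt14 and Trp63, lay above that median on every array. Melanocyte markers were also present, with 4 or 5 of 5 above the median and a mean of 8.60 to 9.53, whereas 3 to 5 of 7 fibroblast markers, 1 or 2 of 5 immune markers and 1 of 4 endothelial markers lay above it. With A-C/EBP each of the 7 keratinocyte markers had a higher mean than in the differentiated controls, but the arrays of Krt14, Trp63 and Dsp overlapped. The mean of the list was 10.82 and 11.13 against 10.22 to 10.42, and its suprabasal keratins Krt1 and Krt10 differed most. The fibroblast markers had a mean of 4.79 and 5.15 against 4.95 to 5.65. None of these markers passed the test there. Upon differentiation 2 of the 7 keratinocyte markers fell, namely Trp63 (−1.42, adjusted p = 0.00256), the regulator of basal cells, and Krt5 (−0.75). The mean of the list was 10.72 and 11.36 before differentiation, and only 1 of the 7 had a higher mean after it. The suprabasal keratins did not pass but were lower on every differentiated array. Krt1 was at 9.18 and 10.98 against 8.38 to 9.17, and Krt10 at 8.33 and 9.96 against 7.60 to 8.10. The basal Krt14 was at 11.89 and 11.86 against 11.29 to 12.12. Of the 7 fibroblast markers 6 were higher and 1 of these, Thy1, rose (0.88, adjusted p = 0.0271), with a mean of 5.31 and 4.76 in undifferentiated cells. Of the 5 melanocyte markers Tyr fell (−0.51, adjusted p = 0.0499), at levels near the array medians. Beside these counts, 9.14% of all genes fell and 6.64% rose. The markers' part in the differences given here was not tested. A-C/EBP replicate 2 stood apart in its hybridization control probe sets, with a mean of 11.34 against 9.03 to 10.59 on the other arrays. The calls of A-C/EBP against the differentiated controls are therefore also given without it. Differentiated replicate 2 stood apart in its highest value, 13.67 against 14.42 to 14.58 on the other arrays. Its median over genes was also the lowest, 5.14 against 5.25 to 5.29.

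Promoter sequence is shown for the members whose windows hold a C/EBP or AP-1 match, since the study concerns these factors. It is also shown for Cnfn, the member that fell in the A-C/EBP arrays. The RefSeq table (GRCm38) holds windows for 5 of the 7 members (Lor, Cnfn, Tgm1, Tgm3 and Tgm5). The 250 bases before each start were searched on both strands for TTGCNNAA (a C/EBP motif), TGACGTCA (the CREB motif), TGANTCA (the AP-1 motif) and TATAAA, which did not overlap each other. Of 32851 such windows, 9.56% hold the first, 1.55% the second, 6.75% the third and 12.4% the last. Capitals mark the matches in these windows, of Lor at chr3:92083143-92083392 (minus strand), Tgm3 at chr2:130012090-130012339 (plus strand) and Cnfn at chr7:25369725-25369974 (minus strand), printed 5′ to 3′.
Lor: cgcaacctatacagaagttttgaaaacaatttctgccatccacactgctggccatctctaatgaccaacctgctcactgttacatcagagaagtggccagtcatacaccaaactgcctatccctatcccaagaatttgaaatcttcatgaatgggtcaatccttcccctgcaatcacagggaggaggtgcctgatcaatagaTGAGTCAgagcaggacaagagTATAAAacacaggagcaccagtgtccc
Tgm3: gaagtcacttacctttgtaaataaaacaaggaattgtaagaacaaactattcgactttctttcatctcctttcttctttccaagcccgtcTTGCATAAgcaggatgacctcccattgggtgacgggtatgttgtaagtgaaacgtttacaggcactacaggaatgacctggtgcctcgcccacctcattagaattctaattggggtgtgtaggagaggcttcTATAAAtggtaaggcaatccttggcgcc
Cnfn: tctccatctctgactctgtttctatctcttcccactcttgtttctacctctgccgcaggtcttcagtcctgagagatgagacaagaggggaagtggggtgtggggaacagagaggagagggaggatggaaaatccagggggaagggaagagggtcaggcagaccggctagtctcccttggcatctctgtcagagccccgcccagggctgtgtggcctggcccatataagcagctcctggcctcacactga
Lor has the AP-1 letters from base −48 to −42 before the start and TATAAA from −27 to −22. In Tgm3 a C/EBP match lies at −160 to −153 and TATAAA at −28 to −23. The windows of Cnfn, Tgm1 and Tgm5 hold none of these letters, which says nothing about binding elsewhere.

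**Figure D1:**
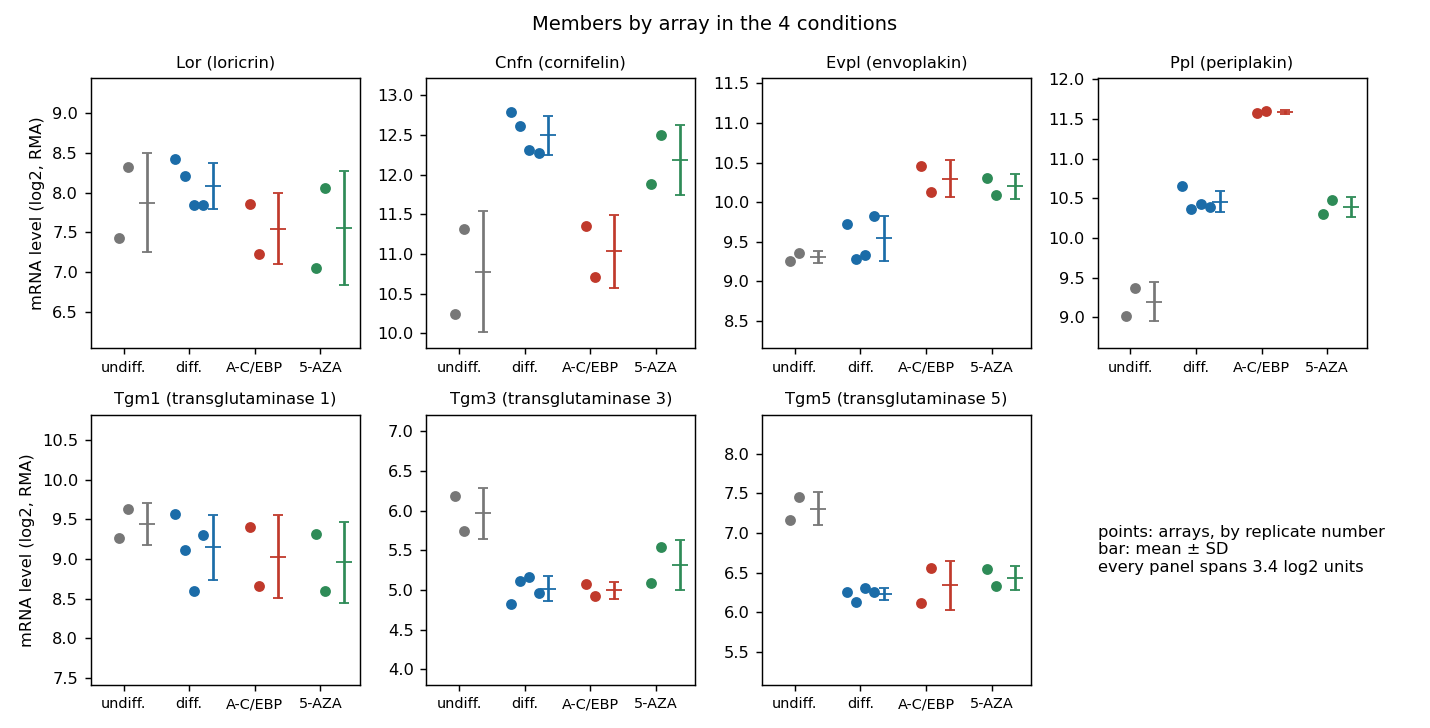
mRNA level (log2, RMA) of the 7 members on each array of undifferentiated (n = 2), differentiated (n = 4), A-C/EBP (n = 2) and 5-AZA (n = 2) keratinocytes, with mean ± SD beside the points. Ppl lies lowest in undifferentiated cells (9.02 and 9.37) and highest with A-C/EBP (11.57 and 11.60), while Tgm5 is highest in undifferentiated cells (7.16 and 7.45).

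Upon differentiation, the scaffold genes Ppl and Cnfn rose, Tgm3 and Tgm5 fell, and Lor, Evpl and Tgm1 did not pass the test. Thus 2 of 7 members rose where 6.64% of all genes did, and 2 fell where 9.14% did. The median log2 difference of the members was 0.21 and that of all genes −0.01, and without sign these medians were 0.95 and 0.14.
Ppl encodes a plakin that links keratin filaments to desmosomes and to the envelope. It was at 9.02 and 9.37 in undifferentiated cells and at 10.65, 10.36, 10.43 and 10.39 in differentiated ones. Every differentiated array was thus above both undifferentiated arrays, and the level rose by 1.26 on the log2 scale (2.4-fold, standard error 0.13, adjusted p = 0.000178). In bulk samples such as these, a changed share of cells of a type and a changed RNA level per cell cannot be told apart.
Cnfn was at 10.24 and 11.32 in undifferentiated cells, a wide spread for a pair. Differentiated cells had 12.79, 12.61, 12.31 and 12.28, with no overlap, and the rise was 1.72 (3.3-fold, standard error 0.31, adjusted p = 0.00386). It was 1.18 (adjusted p = 0.0505) without undifferentiated replicate 1, the lower of the pair.
Tgm5, an early epidermal transglutaminase, was at 7.16 and 7.45 in undifferentiated cells and at 6.25, 6.13, 6.30 and 6.25 in differentiated ones. The groups did not overlap, and the level fell by 1.07 (standard error 0.14, adjusted p = 0.000623).
Tgm3, which is released from an inactive form by proteolysis and acts late in envelope assembly, was at 6.19 and 5.74 against 4.82, 5.11, 5.17 and 4.96. It fell by 0.95 (standard error 0.17, adjusted p = 0.00343), and by 0.73 without undifferentiated replicate 1, where it no longer passed (adjusted p = 0.057). Its differentiated levels were close to the array medians, where signal is not shown to exceed background, and this limits its fold change.
Tgm1, the membrane-bound transglutaminase of the granular layer, was at 9.26 and 9.63 in undifferentiated cells and spread from 8.60 to 9.57 in differentiated ones. Its log2 difference was −0.29 (95% interval −0.97 to 0.38, adjusted p = 0.672). Evpl, the plakin partner of Ppl, was at 9.26 and 9.36 against 9.73, 9.28, 9.33 and 9.83, a difference of 0.23 (−0.16 to 0.62, adjusted p = 0.506). For Lor the levels were 7.43 and 8.32 against 8.43, 8.21, 7.85 and 7.84, a difference of 0.21 (−0.53 to 0.94, adjusted p = 0.82). In each of these 3 genes the arrays of the conditions overlapped, and the intervals reach from a fall to a rise.

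**Figure D2:**
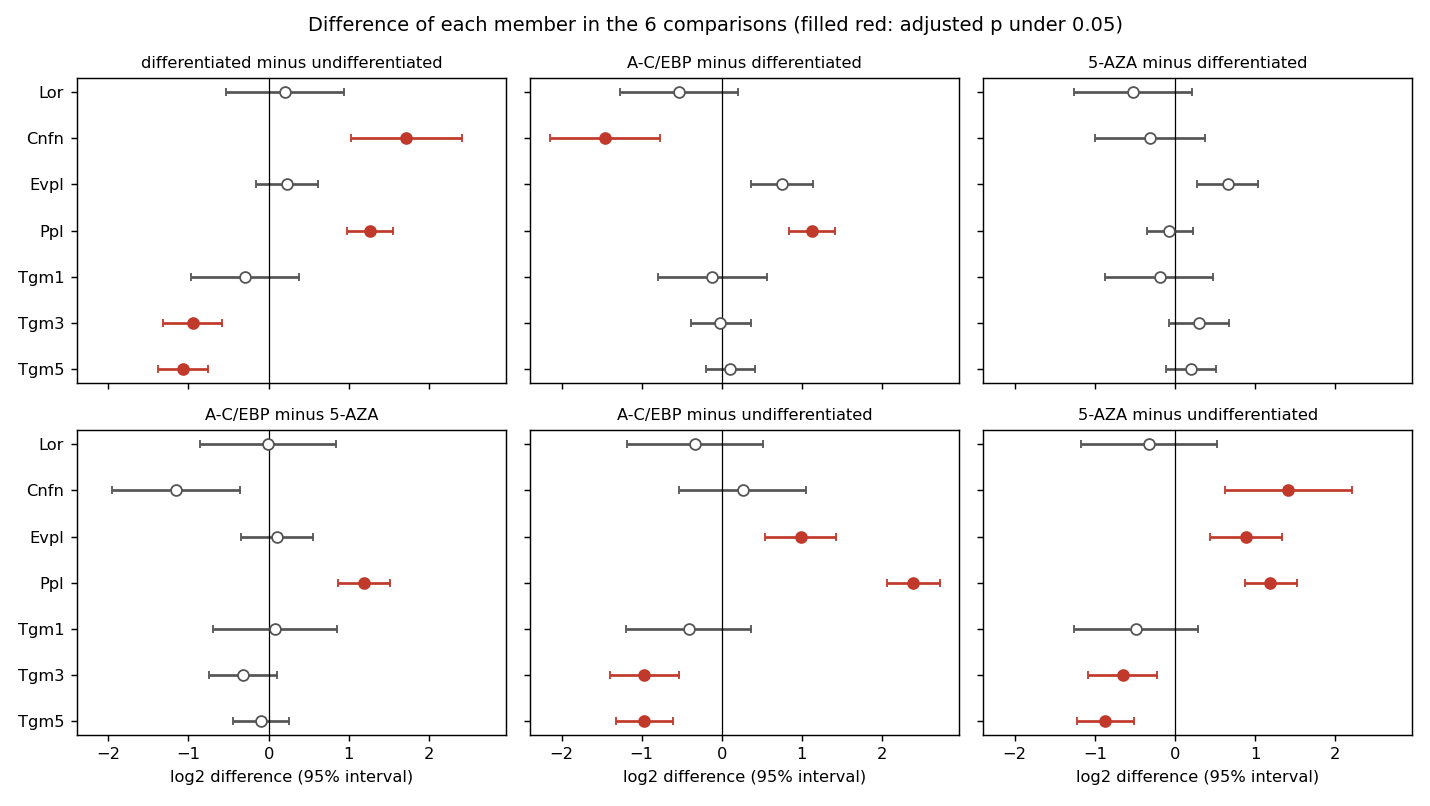
Log2 difference of each member in the 6 pairwise comparisons, with 95% intervals from the limma fit, filled in red where the adjusted p is under 0.05. Ppl passes in all comparisons except 5-AZA minus differentiated, and Lor and Tgm1 pass in none.

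Ppl mRNA was higher and Cnfn mRNA lower in differentiated keratinocytes with A-C/EBP. Of the 7 members 1 rose, where 1.49% of all genes did, and 1 fell, where 0.572% did, and 5 did not pass. The members' median log2 difference was −0.02 and that of all genes 0.01. The 4 differentiated arrays are the controls of this comparison and of that with 5-AZA, and they also enter the comparison with undifferentiated cells.
Ppl was at 11.57 and 11.60 with A-C/EBP, above each of the 4 controls. It rose by 1.12 (2.18-fold, standard error 0.13, adjusted p = 0.00369), and by 1.11 (adjusted p = 0.0459) without A-C/EBP replicate 2.
Cnfn was at 11.36 and 10.71, below every control array. It fell by 1.46 (standard error 0.31, adjusted p = 0.0425), but the call was lost when any 1 differentiated or A-C/EBP array was left out, and the log2 difference was −1.13 (adjusted p = 0.401) without A-C/EBP replicate 2. It was −1.79 without A-C/EBP replicate 1, and over all 19 alternative settings it lay at −1.79 to −1.13.
Evpl stood at 10.46 and 10.13, above the highest control of 9.83. Its difference of 0.75 (95% interval 0.37 to 1.14, adjusted p = 0.0619) did not pass, though it did in 4 of 19 alternative settings, and it lay at 0.59 to 0.92 over them.
None of the transglutaminases stood apart from the controls. Tgm1 was at 9.40 and 8.66 (difference −0.12, interval −0.79 to 0.56), Tgm3 at 5.07 and 4.92 (−0.02, −0.39 to 0.36) and Tgm5 at 6.12 and 6.56 (0.10, −0.20 to 0.41), where the pair of Tgm5 lay on either side of the controls. Lor, at 7.86 and 7.23, differed by −0.53 (−1.27 to 0.20, adjusted p = 0.57).

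**Figure D3:**
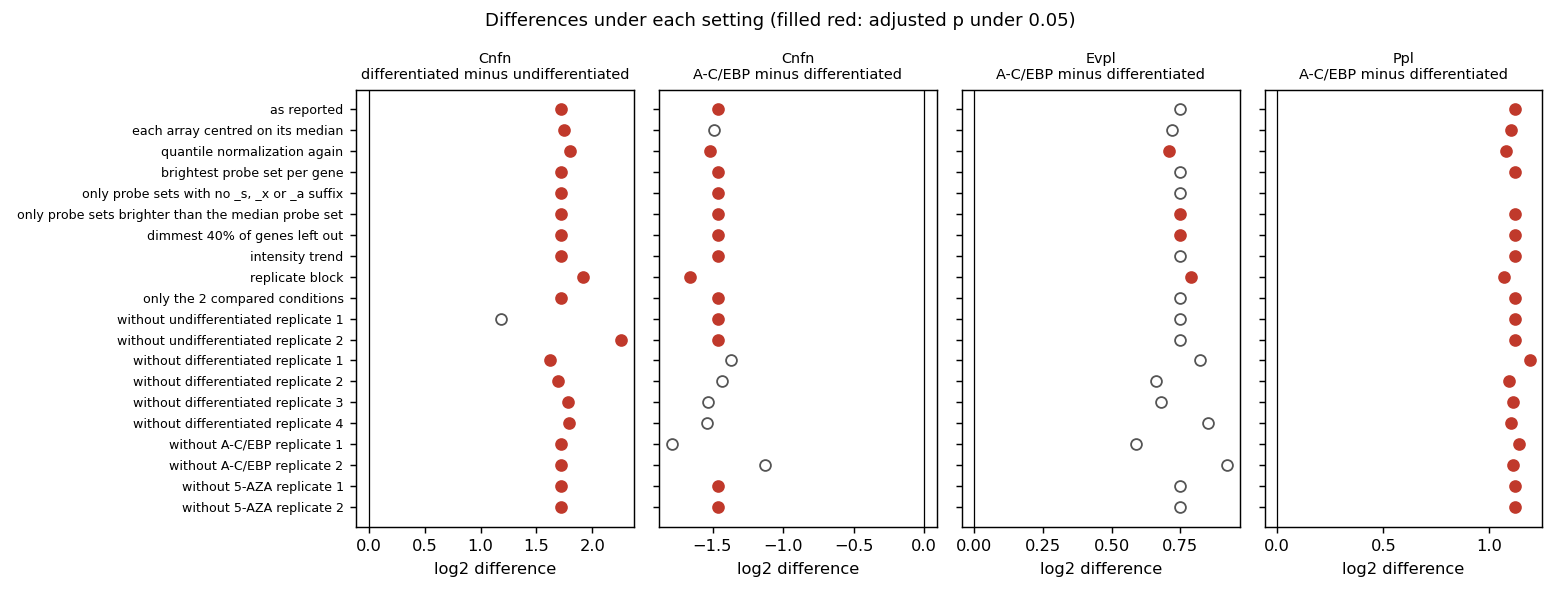
Log2 difference of Cnfn upon differentiation and of Cnfn, Evpl and Ppl with A-C/EBP, as reported and under each alternative setting, filled in red where the adjusted p is under 0.05. Ppl passes under all 18 settings that measure it, Evpl under 4 of 19 and Cnfn with A-C/EBP under 12 of 19. Omission of an array outside a comparison does not move its log2 difference.

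With 5-AZA, none of the 7 members passed the test by limma, where 0.17% of all genes rose and 0.115% fell, and 1 member had an unadjusted p under 0.05. That member was Evpl, at 10.31 and 10.09, above all 4 controls (difference 0.66, 95% interval 0.27 to 1.04, adjusted p = 0.226). Ppl, at 10.30 and 10.48, had 1 array just below the controls and 1 among them (−0.07, −0.35 to 0.22). Cnfn was at 11.88 and 12.50, of which the first lay below every control (−0.31, adjusted p = 0.839). Lor was at 7.05 and 8.06 (−0.52, −1.26 to 0.21), farther apart than the arrays of any other condition, and the difference was −0.02 without 5-AZA replicate 1 and −1.03 without replicate 2. The transglutaminases were at 9.32 and 8.60 for Tgm1, 5.09 and 5.54 for Tgm3 and 6.54 and 6.33 for Tgm5, with differences of −0.19, 0.30 and 0.20 that did not pass, though both arrays of Tgm5 lay just above the controls. The largest fall that the intervals allow for Ppl is thus 0.35 on the log2 scale, whereas those of Lor, Cnfn and Tgm1 are wide.

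Set against each other, the A-C/EBP and 5-AZA conditions differed in Ppl. It was higher with A-C/EBP by 1.19 (standard error 0.15, adjusted p = 0.00365), the only member of 7 to pass, where 2.06% of all genes passed as higher and 1.13% as lower. Cnfn was lower with A-C/EBP by a log2 difference of −1.16 (95% interval −1.95 to −0.36), without overlap and without passing (adjusted p = 0.134). Evpl, which was above the controls in both conditions, differed by 0.10 between them (−0.35 to 0.55).
Against undifferentiated cells, 2 members rose with A-C/EBP, where 7.6% of all genes did, and 2 fell, where 8.01% did. With 5-AZA 3 members rose (7.42% of all genes) and 2 fell (8.72%). Evpl passed in both, by 0.99 (adjusted p = 0.00756) and 0.89 (adjusted p = 0.0132), calls that were lost without undifferentiated replicate 1 (0.93, adjusted p = 0.0561, and 0.84, adjusted p = 0.0861). The first was also lost without A-C/EBP replicate 1 (0.82), and the second without undifferentiated replicate 2 (0.94) or 5-AZA replicate 1 (0.78). Ppl was higher by 2.39 with A-C/EBP (5.23-fold, adjusted p = 1.3e-05) and by 1.19 with 5-AZA. For Cnfn the difference was 0.26 (−0.54 to 1.05) with A-C/EBP and 1.41 (adjusted p = 0.0226) with 5-AZA, the latter 0.87 (adjusted p = 0.171) without undifferentiated replicate 1 and 1.10 (adjusted p = 0.171) without 5-AZA replicate 2. This call of Cnfn was also lost in a fit of only the compared conditions (adjusted p = 0.0721). Tgm5 fell by 0.97 with A-C/EBP and by 0.87 with 5-AZA. For Tgm3 the differences were −0.97 and −0.65. The first call was lost without undifferentiated replicate 1 (−0.74) or A-C/EBP replicate 2 (−0.89, adjusted p = 0.0502). The second (adjusted p = 0.0466) was lost in 12 of 19 alternative settings, including the omission of any single array except undifferentiated replicate 2 and 5-AZA replicate 2, and was −0.43 without undifferentiated replicate 1 or 5-AZA replicate 1.
The order of the conditions therefore differed from gene to gene. In Ppl it ran from undifferentiated (mean 9.20) through 5-AZA (10.39) and differentiated (10.46) to A-C/EBP (11.58), and only 5-AZA and differentiated cells did not differ beyond their spread. In Cnfn the order was undifferentiated (10.78), A-C/EBP (11.04), 5-AZA (12.19) and differentiated (12.50), and no neighbours passed the test against each other. The order of Evpl was undifferentiated (9.31), differentiated (9.54), 5-AZA (10.20) and A-C/EBP (10.30), again without a test passed between neighbours. Tgm5 ran from 6.23 in differentiated cells through 6.34 with A-C/EBP and 6.44 with 5-AZA to 7.30 in undifferentiated cells, and the last step alone passed. Tgm3 had 5.00 with A-C/EBP, 5.01 in differentiated cells, 5.31 with 5-AZA and 5.96 in undifferentiated cells, where the last step passed as well. For Lor (7.55 to 8.08) and Tgm1 (8.96 to 9.44) no conditions could be separated.

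Lor and Tgm3 are measured by more than 1 probe set. For Lor, 1420183_at (8.47 to 10.29) and 1448745_s_at (8.05 to 10.43) varied widely among replicates, whereas 1420184_at stayed at 4.14 to 4.83, around the array medians, so that its signal is not shown to exceed background. None of them passed in any of the 6 comparisons. The difference upon differentiation was 0.26, 0.61 and −0.26, and the mean of 0.21 therefore joins probe sets of opposite sign. Without the dim one it was 0.44 (adjusted p = 0.568), an alternative chosen after these values were seen. Tgm3 fell upon differentiation by both of its probe sets, with log2 differences of −0.73 (1421355_at, adjusted p = 0.0128) and −1.17 (1440150_at, adjusted p = 0.00602), adjusted over all probe sets. The other 5 members rest on a single probe set each. In the limma fit of probe sets, the lower level of Cnfn with A-C/EBP did not pass (−1.46, adjusted p = 0.0698).

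**Figure D4:**
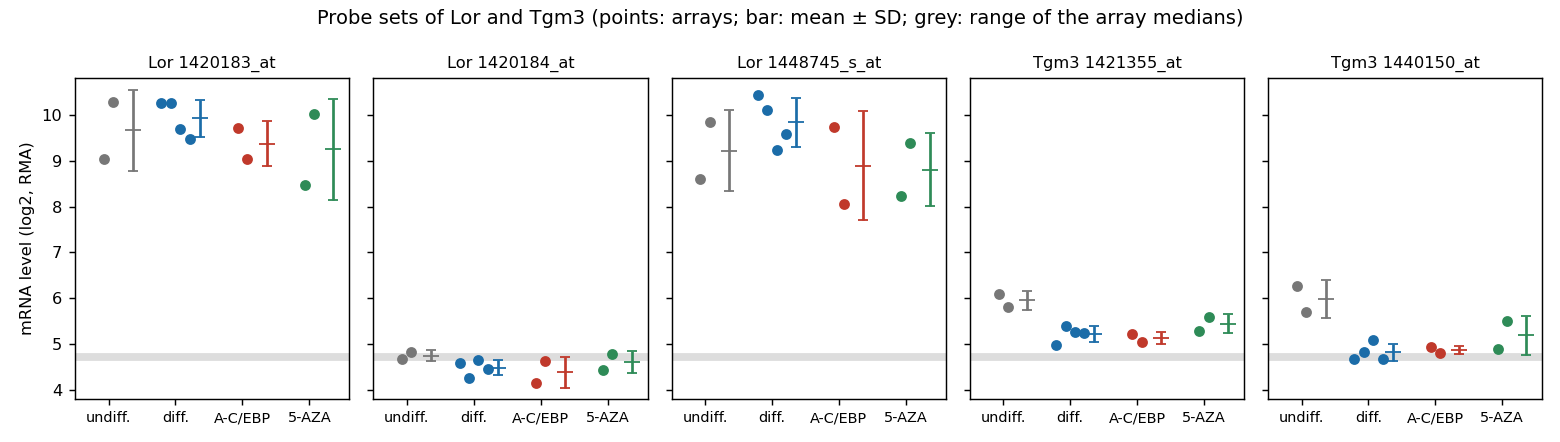
mRNA level (log2, RMA) by array of the 3 probe sets of Lor and the 2 of Tgm3, with mean ± SD and, in grey, the range of the array medians (4.64 to 4.78). The Lor probe set 1420184_at lies at that range, and both Tgm3 probe sets are highest in undifferentiated cells.

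The members also varied among replicates of 1 condition. When each array was expressed as its deviation from the mean of its condition, Lor and Cnfn had r = 0.96 over the 10 arrays, Evpl and Tgm1 r = 0.80 and Cnfn and Ppl r = 0.78, while Tgm3 and Tgm5 had r = −0.66. Undifferentiated replicate 1 was the lower of its pair for each member except Tgm3. It was also the lower for every measured envelope precursor listed below, as for filaggrin (Flg, 7.10 against 9.43) and Lce1a1 (7.40 against 9.20). The same held for Krt1 and Krt10. Whether the pair differed in differentiation state was not tested. These values are descriptions, since all genes of an array share its RNA, labelling and scan, and the arrays of a pair deviate from its mean by equal amounts in opposite directions.
By Pearson correlation of the levels over the 10 arrays among 9096 genes brighter than the median gene, Ppl was most like Chit1 (r = 0.988), Adgre5 (0.987) and Hcfc1r1 (0.971). Nearest to Cnfn were Snhg18 (0.946), the trichohyalin-like gene Tchhl1 (0.942) and Lce1f (0.939), a late envelope gene. Evpl resembled Pheta1 (0.956), Mta3 (0.943) and Crlf2 (0.942), and Lor came closest to Ell2 (0.828) and the late envelope genes Lce3c (0.789) and Lce3b (0.785). The pattern of Tgm1 was nearest to Ywhag (0.910), Cat (0.890) and Pfkfb3 (0.888), that of Tgm3 to Hgh1 (0.962), the centromere gene Cenpm (0.946) and Gcfc2 (0.943), and that of Tgm5 to Bmp2k (0.972), Cul5 (0.970) and the chaperone Hspa8 (0.965).

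Among 10 proteases and protease inhibitors listed for transglutaminase activation, 4 rose, 1 fell and 5 did not pass upon differentiation. Whether each of these acts on transglutaminases was not tested. Their median was 0.27 against −0.01 for all genes, of which 6.64% rose and 9.14% fell. Without undifferentiated replicate 1, 2 of the 10 rose and 0 fell. Cst6, a cystatin that inhibits cathepsin L and thereby the processing of transglutaminase 3, was at 8.59 and 9.72 in undifferentiated cells and at 13.13, 12.84, 13.69 and 13.75 in differentiated ones, a rise of 4.20 (standard error 0.32, adjusted p = 4.14e-05). Its protease Ctsl rose by 0.62 (adjusted p = 0.0118), Ctsb by 0.70 (adjusted p = 0.00512) and the serine protease inhibitor Spink5 by 1.05 (adjusted p = 0.00124), while Capn1, a calpain, fell by 1.31 (adjusted p = 0.0213). The calls of Ctsb (0.66, adjusted p = 0.0603), Ctsl (0.59) and Capn1 (−1.16) were lost without undifferentiated replicate 1. Those of Ctsl (0.65) and Capn1 (−1.46) were also lost without undifferentiated replicate 2, and that of Capn1 (−1.21) without differentiated replicate 2. Ctsd, the cathepsin linked to the activation of transglutaminase 1, had 0.38 (adjusted p = 0.102). With A-C/EBP none of the 10 passed by limma, and none had an unadjusted p under 0.05. Cst6 was at 13.01 and 12.85 there and at 14.00 and 13.91 with 5-AZA, where none of the 10 passed and 2 had an unadjusted p under 0.05.
Of the other transglutaminase family genes, 5 of 6 were measured and none passed by limma upon differentiation, with A-C/EBP or with 5-AZA, with an unadjusted p under 0.05 for 1, 0 and 0 of them. Their means in undifferentiated and differentiated cells (3.16 to 4.39) lay below the array medians, so that their signal is not shown to exceed background. Tgm2, the tissue transglutaminase, was at 3.68 to 4.30 over all arrays.
Of the 5 other plakin genes, Dst, which encodes the hemidesmosome plakin BPAG1, fell upon differentiation (−0.84, adjusted p = 0.00393), where 9.14% of all genes fell. The rest did not pass, and the call of Dst was lost without undifferentiated replicate 2 (−0.69). Dsp, desmoplakin, had a log2 difference of 0.00. All 5 were higher with A-C/EBP, by a median of 0.31, without passing, and 2 had an unadjusted p under 0.05.
Among 19 measured genes listed as crosslinked envelope precursors, 7 rose, 2 fell and 10 did not pass upon differentiation (median 0.76). Of all genes, 6.64% rose and 9.14% fell. Whether transglutaminases crosslink each of the 19 was not tested. Without undifferentiated replicate 1, 4 rose and 3 fell, and the calls of Ivl (0.47, adjusted p = 0.126), Sprr1a (0.92, adjusted p = 0.0814) and Anxa1 (0.69, adjusted p = 0.259) were lost. Without undifferentiated replicate 2, 8 rose and 0 fell, and the falls of Csta1 (−1.75, adjusted p = 0.0872) and Hrnr (−0.64, adjusted p = 0.136) no longer passed. The call of Hrnr was also lost without any 1 of the differentiated, A-C/EBP or 5-AZA arrays (−2.19 to −2.01), and that of Anxa1 without differentiated replicate 1 (0.72), 2 (0.63) or 4 (0.80), undifferentiated replicate 2 (0.83) or either 5-AZA array (0.76). Hrnr lay below the array median on every array except undifferentiated replicate 2 (7.10), so that its signal elsewhere is not shown to exceed background. The lowest adjusted p-values were those of Crct1 (2.44), the desmosome glycoprotein corneodesmosin (Cdsn, 1.48), Tchhl1 (2.63) and Sprr3 (3.16). Tchhl1 was at 4.11 and 4.76 in undifferentiated cells, close to the array medians, which limits its fold change. With A-C/EBP 1 rose, 0 fell and 18 did not pass, where 1.49% of all genes rose and 0.572% fell. Cdsn, at 13.13 and 13.10 against 11.37 to 12.18, was the one that rose (1.31, adjusted p = 0.0186), a call lost without A-C/EBP replicate 1 (1.29, adjusted p = 0.0752) or 2 (1.32, adjusted p = 0.156). With 5-AZA involucrin (Ivl), a scaffold of the early envelope, fell by 1.38 (adjusted p = 0.024), from 10.72 to 11.11 in the controls to 9.50 and 9.45. That call was lost without either 5-AZA array (−1.40 without replicate 1 and −1.35 without replicate 2) and without differentiated replicate 1 (−1.29), 2 (−1.40) or 4 (−1.40). Between A-C/EBP and 5-AZA, Ivl (2.14, adjusted p = 0.000866) and Sprr3 (3.44, adjusted p = 0.0163) were higher with A-C/EBP, where the call of Sprr3 was lost without A-C/EBP replicate 1 (3.34) or 2 (3.54) or 5-AZA replicate 1 (2.80).

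**Figure D5:**
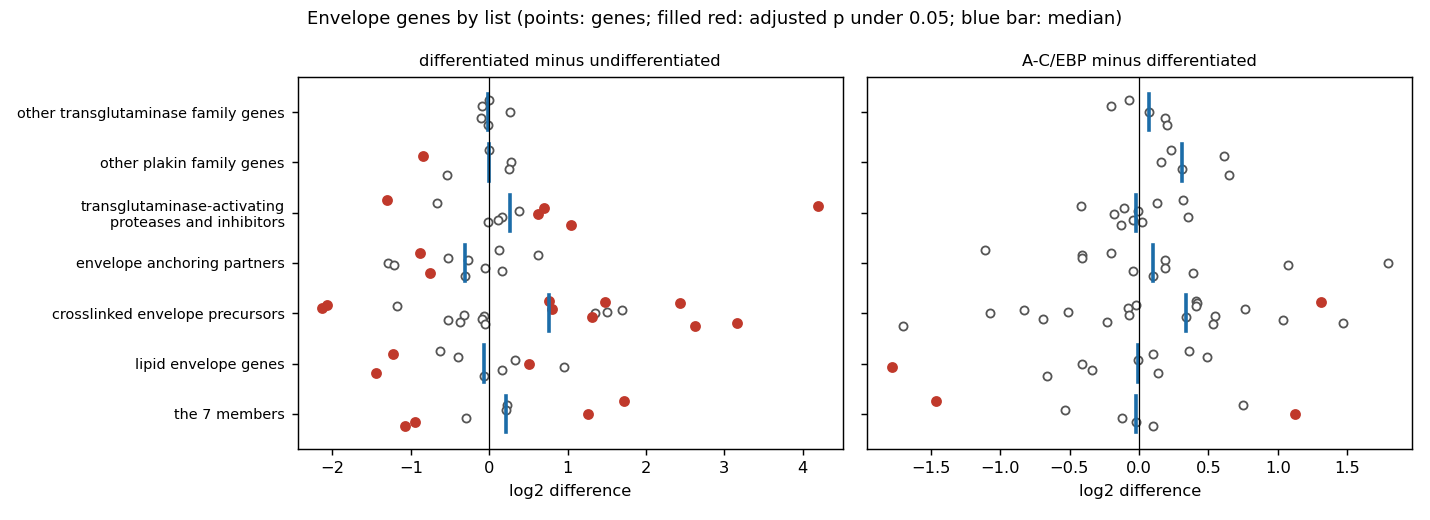
Log2 difference of each gene (points, red where the adjusted p is under 0.05) and list median (blue bar) in differentiated against undifferentiated cells and with A-C/EBP against differentiated cells. The point at 4.20 is Cst6, and with A-C/EBP 1 of 19 genes listed as crosslinked precursors and none of the other transglutaminase genes pass.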

How the data were processed

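mRNA was measured in 10 samples on Affymetrix mouse expression arrays. The authors deposited normalized log2 values per probe set. The submitters' processing notes name RMA and Affymetrix Expression Console, without versions in the sources used here. RMA corrects background and forces the arrays to like distributions, so differences are relative, and those of dim genes are compressed. Groups and replicate numbers follow the sample titles (both A-C/EBP arrays carry the number 2 in another label). Of 45101 probe sets, 34945 had 1 gene symbol after 64 array controls were left out. They were averaged over 18193 genes, as the study's methods averaged data points of a promoter. Other conditions of the study are not analysed here.

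One limma 3.58.1 fit in R 4.3.3, with a mean per condition and 6 residual degrees of freedom, served the 6 comparisons, two-sided, with Benjamini-Hochberg adjustment over all genes. A second fit used each probe set. The fit was tested on simulated data. The members and gene lists were chosen with earlier results of these data known. The genes named are the members, the genes of each list that passed in the comparisons described (or the 4 with the smallest adjusted p where more than 6 did), others (Ctsd, Tgm2, Dsp, Krt1, Krt10, Dsc1, genes whose calls were lost without an array, and markers), chosen after their values were seen, and the 3 genes most correlated with each member. Motifs were counted in RefSeq windows with Python 3.11.15. Alternatives were other scalings, probe set rules, 1 of them added after the data were seen, a filter, a variance trend, a replicate block, fewer conditions and omission of each array.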

Additional observations from a re-analysis of the deposited data

How the results depend on the processing

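Over 19 alternative settings, the calls of Ppl upon differentiation, with A-C/EBP and between A-C/EBP and 5-AZA held wherever it was measured (18 settings), and that of Tgm5 upon differentiation in all 19. Omission of an array outside the compared conditions leaves a log2 difference as it was and can alter only its adjusted p. With such settings included, 724 of the members' values under the alternatives kept their direction and side of the threshold. Another 31 no longer passed, 4 newly passed and 27 turned their sign, the last all of differences that had not passed. For these changes the cause was not tested, except that probe sets without a suffix leave Ppl and Tgm1 unmeasured.

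With only such probe sets, 1 member rose upon differentiation, 0 with A-C/EBP, 0 between A-C/EBP and 5-AZA and 1 between A-C/EBP and undifferentiated cells, 1 fell between 5-AZA and undifferentiated cells, and 32 genes in all were called with 5-AZA in place of 52. With median centring 0 members fell with A-C/EBP and 24 genes were called with 5-AZA. Evpl was the second of 2 members that rose with A-C/EBP under repeated quantile normalization, with the dimmest 40% of genes left out, with a replicate block, and with only probe sets brighter than the median one, a setting chosen after seeing the data. In fits of only the compared conditions 24 genes were called with 5-AZA and 96 between A-C/EBP and 5-AZA (580 otherwise). Between 5-AZA and undifferentiated cells 1 member fell in such a fit, with the brightest probe set per gene and with the replicate block. Lor between A-C/EBP and 5-AZA (−0.01) was at 0.01 with centring, 0.12 with the brightest probe set and 0.10 with the brighter probe sets.

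With the replicate block, 773 genes were called with A-C/EBP (375 without it), 398 with 5-AZA and 1384 between them, and Tgm3 with A-C/EBP was at 0.03. The numbers 3 and 4 occur only among the differentiated arrays, so the block takes up these arrays whole. Its comparisons with differentiated cells therefore rest on differentiated replicates 1 and 2 alone. The labels do not say that the numbers pair the arrays. Deviations of arrays with the same number correlated at 0.04 to 0.46 and those of others at −0.62 to 0.62. Of 8 arrays, 6 were most like an array with their own number. Where a condition has only a pair of arrays, their deviations are equal and opposite, so the correlations of an array fix those of its partner. The correlations and the count are therefore not independent outcomes, and they cannot decide whether the numbers pair the arrays.

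Without each array in turn, 1435 to 2891 genes were called upon differentiation, 54 to 362 with A-C/EBP, 2 to 57 with 5-AZA, 125 to 628 between these, and 1750 to 2947 and 1670 to 3051 for A-C/EBP and 5-AZA against undifferentiated cells. The lowest came without undifferentiated replicate 1 in each comparison with undifferentiated cells, without A-C/EBP replicate 2 for A-C/EBP, and without 5-AZA replicate 2 for the others. Of the members, 1 to 2 rose and 1 to 2 fell upon differentiation, 0 to 1 fell with A-C/EBP, 1 to 2 rose and 1 to 2 fell between A-C/EBP and undifferentiated cells, and 1 to 3 rose and 1 to 2 fell between 5-AZA and undifferentiated cells. Lor lay at −0.24 to 0.65 upon differentiation, −1.03 to −0.02 with 5-AZA, −0.51 to 0.50 between A-C/EBP and 5-AZA, and −0.77 to 0.12 and −0.82 to 0.19 for A-C/EBP and 5-AZA against undifferentiated cells. With A-C/EBP, Tgm1 lay at −0.49 to 0.26, Tgm3 at −0.09 to 0.06 and Tgm5 at −0.11 to 0.32. With 5-AZA, Cnfn lay at −0.62 to 0.00, Ppl at −0.16 to 0.03 and Tgm1 at −0.55 to 0.17. Between A-C/EBP and 5-AZA, Evpl lay at −0.06 to 0.26, Tgm1 at −0.30 to 0.45 and Tgm5 at −0.32 to 0.12. Cnfn between A-C/EBP and undifferentiated cells lay at −0.28 to 0.80. Levels near the array medians, as of Tgm3, limit what a difference can show.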

Other observations

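Of 11 measured genes that anchor the envelope to desmosomes and keratins, Dsc3 (−0.88, adjusted p = 0.0181), a desmosomal cadherin, and the basal keratin Krt5 (−0.75, adjusted p = 0.0291) fell upon differentiation, and 9 did not pass, where 9.14% of all genes fell. Without undifferentiated replicate 1, 4 of them fell, and without undifferentiated replicate 2, 0 fell and 1 rose. The call of Dsc3 was lost without undifferentiated replicate 2 (−0.67, adjusted p = 0.182), and that of Krt5 without either undifferentiated array (−0.74 and −0.75) or differentiated replicate 2 (−0.70) or 3 (−0.64). With A-C/EBP none of them passed by limma, and 3 had an unadjusted p under 0.05. The suprabasal keratin Krt1 was at 10.21 and 10.95 with A-C/EBP and at 8.38 to 9.17 in the differentiated controls (1.79, adjusted p = 0.0643). The others of the 3 were Krt10, another suprabasal keratin (1.07, adjusted p = 0.263), and the desmosomal cadherin Dsc1, which lay lower, at 8.60 and 7.39 against 8.86 to 9.35 (−1.11, adjusted p = 0.201).

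Among 9 measured genes of the lipid envelope, which is attached to the outer face of the protein shell, Alox12b, a lipoxygenase, fell upon differentiation (−1.23, adjusted p = 0.00197), as did Sdr9c7 (−1.44, adjusted p = 0.00913), while Cyp4f39 rose (0.51, adjusted p = 0.0287), beside 9.14% of all genes that fell and 6.64% that rose. Alox12b was at 3.78 to 4.34 in the differentiated arrays, below their medians, which limits its fold change. The call of Sdr9c7 was lost without undifferentiated replicate 2 (−0.87, adjusted p = 0.0952), and that of Cyp4f39 without undifferentiated replicate 1 (0.29, adjusted p = 0.337) or differentiated replicate 1 (0.49), 3 (0.51) or 4 (0.48). With A-C/EBP, Elovl4, an elongase of very long fatty acids, fell (−1.78, adjusted p = 0.0423), at 9.66 and 8.01 against 10.54 to 10.77 in the controls. It was −0.95 (adjusted p = 0.235) without A-C/EBP replicate 2, and the call was also lost without any single differentiated array (−1.80 to −1.73) or either 5-AZA array (−1.78, adjusted p = 0.0589). With 5-AZA none of the 9 passed by limma, and none had an unadjusted p under 0.05.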
